A study of Saccharomyces cerevisiae with 4 samples.

Results

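The genes described encode proteins of the cytosolic small (40S) ribosomal subunit of the budding yeast Saccharomyces cerevisiae, strain S288c. They are 34 of the 6301 open reading frames (ORFs) on a spotted array, listed by systematic name with earlier results of these data known. Of 22 other 40S genes, 18 lie in the rows named next, and 3 that lie elsewhere are described at the end. The choice avoided the rows YKL054C to YMR185W and YOR046C to YPL023C, called the runs below, where the arrays of replicate number 1 do not correlate gene by gene with those of replicate number 2 (Pearson's r 0.042 across 771 genes, against 0.959 across the 2994 genes outside). Of the 34 genes, 27 were well measured on all 4 arrays, 6 on the 2 arrays of replicate 1 only, and 1 on none.

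Nitrogen-poor cells were contrasted with nitrogen-rich cells by competitive hybridization, with mRNA reverse transcribed from oligo-dT, a primer for poly-A tails. The nitrogen-poor cells spent 12 h in minimal medium (MM) that held 0.025% ammonium sulfate and lacked adenine and amino acids. The nitrogen-rich cells came from synthetic complete medium (SC) at an OD600 of 0.4, and both were S288c with no mutation named in the labels. Each of the 2 replicate numbers has 1 array with MM in Cy5 and SC in Cy3 and 1 array with SC in Cy5 and MM in Cy3, as the titles name the dyes. The submitters call the replicates biological, while the methods name only separate cDNA syntheses. Whether the cultures were separate is not stated, so that p-values measure the spread between these samples, which may be technical.

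The values are log2 ratios of MM over SC, where -1 would be a level in MM that is 2-fold lower than in SC. For the media, array titles and channel annotations disagree on the dye. The direction was therefore read from levels given for each medium, whose sign the deposited mean had in 1375 of 1379 genes outside the runs and in 8 of 8 of the 40S genes among them. The names of the dye orientations follow the titles and would be exchanged under the channel annotations, while the direction of the ratio would not. Of the 6301 ORFs, 5941 and 5844 were well measured on the arrays of replicate 1, and 4390 and 4122 on those of replicate 2. Each array was normalized to its own mean, so that a ratio is relative to the other genes of that array. A drop shared by all mRNAs would not be seen.

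The 40S subunit binds mRNA and decodes it. Its body and platform are laid down early around the 18S rRNA, and its head, which swivels as tRNA and mRNA move, is completed later. Most yeast ribosomal proteins are encoded by a pair of paralogous genes, A and B, retained from a whole-genome duplication. The promoters of these genes carry Rap1, Fhl1 and Ifh1, and their transcription is known to depend on the nutrient-sensing kinases TORC1 and protein kinase A. Copies A and B encode identical or nearly identical proteins, and a spotted ORF can capture transcripts of both. The values of a pair are thus not independent, and how much each spot took up from the other copy was not tested.

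Most 40S genes read slightly lower in MM than in SC, and a minority of these differences passed the test. Of 27 genes tested, 20 had a mean log2 ratio below 0 (51.5% of all genes did) and 7 a mean above 0 (48.5%), and the median was -0.33, against -0.02 over all 3765 genes with values on all 4 arrays. Limma was run with the dye orientations of each number averaged to n = 2 replicates. It called 7 of the 27 (25.9%) lower in MM at an adjusted p at or under 0.05. Among all genes tested 17.0% were called lower, but this and the other shares of all genes here include the rows of the runs. None of the 27 lie there. Among the 2994 genes outside the runs, the same fit called 612 lower (20.4%). None of the 27 was called higher, against 16.5% of all genes and 597 of the 2994 genes outside the runs. Without adjustment RPS27B alone was higher (23.4% of all genes were) and 13 were lower (24.8%), at p of 0.05 or less. The genes called included RPS2, RPS4B, RPS6A, RPS6B, RPS9A and RPS20. Each of the 7 was below 0 on all 4 arrays, as were 13 of the 27 in all (48.1%, against 30.5% of all genes).

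**Figure D1:**
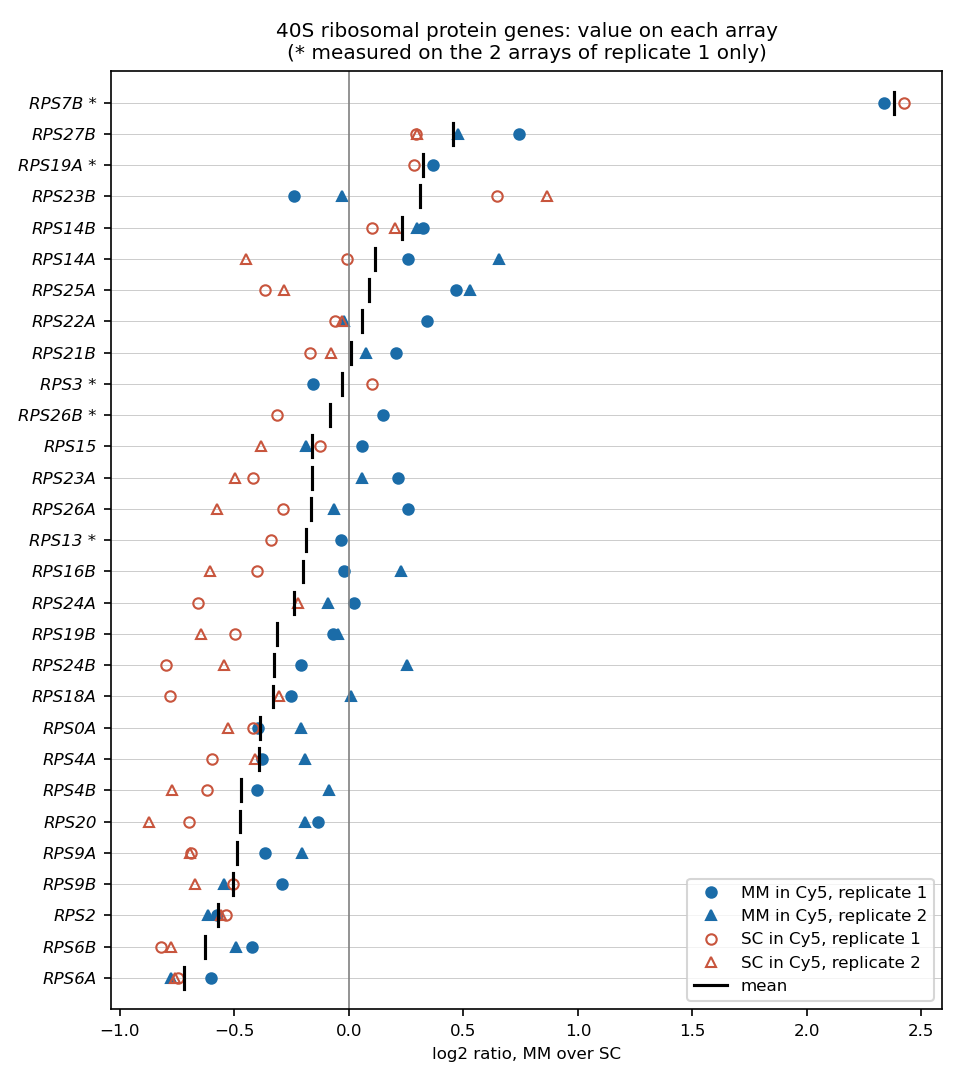
Log2 ratio of MM over SC (x axis) of 29 of the 33 measured 40S genes (rows, sorted by mean), with filled blue symbols for MM in Cy5, open red symbols for SC in Cy5, circles for replicate 1, triangles for replicate 2 and a bar for the mean. The row named RPS7B, whose spot identity was not tested, stands apart at 2.38 on 2 arrays, and in most rows the blue symbols lie to the right of the red ones.

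RPS6A (YPL090C) had the lowest mean of the 40S genes. It and its copy encode Rps6, a protein of the body that is phosphorylated when TORC1 is active. Its log2 ratios were -0.60 and -0.78 with MM in Cy5, and -0.75 and -0.76 with SC in Cy5 (replicates 1 and 2). The mean of -0.72 ± 0.07 (SD, n = 2) is a level 1.65-fold lower in MM, with an adjusted limma p of 0.0230. All 4 arrays gave nearly the same value, and the orientations overlapped. RPS6B (YBR181C) was at -0.43 and -0.49 with MM in Cy5, and at -0.82 and -0.78 with SC in Cy5. Its mean was -0.63 ± 0.01 (SD, n = 2), 1.55-fold lower in MM, with an adjusted limma p of 0.0261. Here the orientations did not overlap, and the decrease was larger on both arrays with SC in Cy5.

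RPS2 (YGL123W) encodes Rps2, which lines the channel where mRNA enters the subunit, and has no paralog. It was the steadiest of the 7 across arrays, at -0.58 and -0.62 with MM in Cy5, and at -0.54 and -0.56 with SC in Cy5. The mean was -0.57 ± 0.02 (SD, n = 2), 1.49-fold lower in MM, with an adjusted limma p of 0.0303. Neither its replicates nor its dye orientations differed by more than 0.10 on the log2 scale.

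Other called genes of the body were RPS9A and RPS4B. Rps9 lies near the mRNA entry and is known for mutants that alter the accuracy of decoding. RPS9A (YPL081W) was at -0.37 and -0.20 with MM in Cy5, and at -0.69 on both arrays with SC in Cy5, with a mean of -0.49 ± 0.06 (SD, n = 2, adjusted limma p 0.0411). RPS4B (YHR203C) was at -0.40 and -0.09 with MM in Cy5, and at -0.62 and -0.77 with SC in Cy5, with a mean of -0.47 ± 0.06 (SD, n = 2, adjusted limma p 0.0437). In both genes the orientations did not overlap, and most of the decrease was seen on the arrays with SC in Cy5.

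RPS20 (YHL015W), for a protein of the head that contacts the incoming mRNA, was the only gene of the head among the 7. It was at -0.13 and -0.19 with MM in Cy5, and at -0.70 and -0.87 with SC in Cy5. The mean was -0.47 ± 0.08 (SD, n = 2), 1.39-fold lower in MM, with an adjusted limma p of 0.0460. Its decrease was thus called on the mean of orientations that lay 0.62 apart.

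Other genes lay just outside the threshold. RPS9B (YBR189W) had a mean of -0.50 ± 0.15 (SD, n = 2, adjusted limma p 0.0507). It was at -0.29 and -0.55 with MM in Cy5, and at -0.51 and -0.67 with SC in Cy5. Its mean was lower than that of its called paralog, but its replicates lay further apart and its orientations overlapped. RPS0A (YGR214W), for a protein that joins the subunit late, between body and head, was at -0.39 ± 0.03 (SD, n = 2, adjusted limma p 0.0586). Neighbours in this order often differed by less than their SD. RPS20 and RPS4B, for example, had the same mean to the second decimal.

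The calls depend on which rows share the fit. In a fit without the runs, 15 of the 27 genes were lower in MM and 2 (RPS23B and RPS27B) were higher, against 33.3% and 30.8% of 2994 genes. That fit gave each gene a common variance, so that the call is a limit on fold change. The 15 held all 7 genes above, and RPS0A, RPS4A, RPS9B, RPS18A, RPS19B and RPS24B were among the others. When the replicate 2 array that had MM in Cy5 was left out, limma called 0 of 27 lower (13 before adjustment), against 7.17% of all genes. When either array with SC in Cy5 was left out it called 2 (7.41%), against 14.1% of all genes without that of replicate 1 and 13.6% without that of replicate 2. In these 3 fits the share of the 40S genes called lower was below that of all genes. In the fit without the other array with MM in Cy5 it was above. Once an array is left out, its replicate number holds a single orientation, so that a dye difference enters the spread between replicates. How far this changed the calls was not tested. The median log2 ratio of the 40S genes stayed between -0.45 and -0.20 with single arrays left out.

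The genes above 0 were fewer and none was called. RPS27B (YHR021C), for a zinc-finger protein of the platform, had the highest mean of the genes on all 4 arrays. It was at 0.74 and 0.48 with MM in Cy5, and at 0.29 and 0.30 with SC in Cy5. The mean was 0.45 ± 0.09 (SD, n = 2), 1.37-fold higher in MM, with an adjusted limma p of 0.0509, and it was called higher with the runs left out (adjusted limma p 0.0005). All 4 arrays were above 0, as were those of 1 other gene of the 27 and of 29.1% of all genes. Rps14 is a platform protein that is known to bind the pre-mRNA of RPS14B and limit its splicing. RPS14B (YJL191W) was also above 0 throughout, at 0.32 and 0.30 with MM in Cy5, and at 0.10 and 0.20 with SC in Cy5, with a mean of 0.23 ± 0.03 (SD, n = 2, adjusted limma p 0.147).

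The remaining genes above 0 changed sign between the arrays, and RPS14A and RPS23B among them are described with their pairs below. RPS25A (YGR027C), for a head protein that is needed for initiation at some viral internal ribosome entry sites, had a mean of 0.09 ± 0.05. RPS21B (YJL136C) was at 0.01 ± 0.01 and RPS22A (YJL190C) at 0.06 ± 0.12 (SD, n = 2). The adjusted limma p of RPS25A, RPS21B and RPS22A lay between 0.505 and 0.959.

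Between these and the called genes lay 9 more, RPS4A, RPS15, RPS16B, RPS18A, RPS19B, RPS23A, RPS24A, RPS24B and RPS26A, with means from -0.16 to -0.39 and adjusted limma p from 0.0735 to 0.361. Those of the head include RPS18A (YDR450W), whose protein sits in the bridge from head to the large subunit. It was at -0.25 and 0.01 with MM in Cy5, and at -0.78 and -0.31 with SC in Cy5, and its SD of 0.26 between replicates was the largest among the 27 genes. RPS19B (YNL302C), whose human counterpart is mutated in Diamond-Blackfan anemia, was at -0.07 and -0.05 with MM in Cy5, and at -0.50 and -0.65 with SC in Cy5. RPS16B (YDL083C), whose protein reaches with its tail toward the tRNA, was at -0.02 and 0.23 with MM in Cy5, and at -0.40 and -0.61 with SC in Cy5. In all of these the orientations did not overlap, and the replicate means of RPS16B were close (-0.21 and -0.19) although its arrays spanned both signs. RPS15 (YOL040C), for a head protein required for export of the pre-40S particle from the nucleus, was near 0 on average at -0.16 ± 0.18 (SD, n = 2), and its orientations overlapped.

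Of the body and platform, RPS24A (YER074W) was at 0.02 and -0.09 with MM in Cy5, and at -0.66 and -0.22 with SC in Cy5. RPS24B (YIL069C) was at -0.21 and 0.25 with MM in Cy5, and at -0.80 and -0.55 with SC in Cy5. The copies of RPS24 thus read near 0 in an orientation and lower in the other. RPS26A (YGL189C), for a protein at the mRNA exit on the platform, was at 0.26 and -0.06 with MM in Cy5, and at -0.29 and -0.58 with SC in Cy5. Its mean of -0.17 ± 0.22 (SD, n = 2) was smaller than the spread between its replicates, as was the case in 4 of the 27 genes.

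Of the genes measured on replicate 1 only, RPS7B (YNL096C) stood far from all others. It encodes a copy of Rps7, a protein of the body that joins early, and read 2.34 with MM in Cy5, and 2.43 when SC was in Cy5. The mean of 2.38 would be a level 5.21-fold higher in MM. The spot was blank on both arrays of replicate 2, so the value has no replicate and was not tested. The name comes from the ORF identifier of the row alone, and whether the spot holds this gene was not tested. RPS19A (YOL121C) read 0.37 with MM in Cy5, and 0.28 when SC was in Cy5. RPS13 (YDR064W) was at -0.04 and -0.34, and RPS26B (YER131W) at 0.15 and -0.31 in the same order. RPS3 (YNL178W), whose protein guards the mRNA entry in the head, read -0.16 with MM in Cy5, and 0.10 when SC was in Cy5. Apart from RPS7B, these lay within the range of the genes tested.

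When genes were grouped by the place of their protein in the subunit, a grouping made after the values were seen, the medians were close. The 7 genes of the head tested had a median of -0.32 (-0.47 to 0.09), with 6 below 0 and 1 called lower. The 20 genes of the body and platform had a median of -0.36 (-0.72 to 0.45), with 14 below 0 and 6 called lower. Both the lowest and the highest values were thus those of the body and platform, and no difference between the regions was tested.

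The paralogs ask whether copies A and B of a protein followed the medium alike. Of 10 pairs with both copies among the genes chosen, 7 were measured on all 4 arrays. In 6 of these, which include RPS4, RPS6, RPS9, RPS14 and RPS24, the log2 ratio of A minus that of B was between 0.016 and 0.12 in size. Over the 7 pairs the median size of this difference was 0.093, against 0.295 over the 344 pairs of genes for different proteins. In 5 of the 7 pairs both copies had means below 0, and in RPS14 both were above 0.

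**Figure D2:**
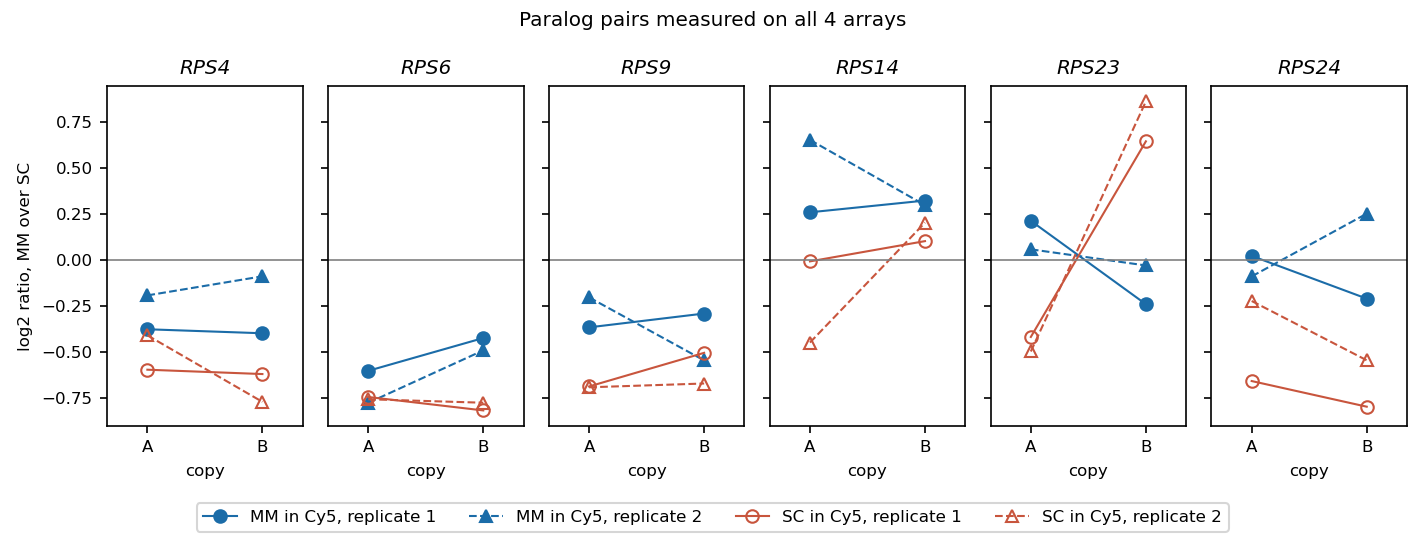
Log2 ratio of MM over SC (y axis) of copy A (left) and copy B (right) of 6 of the 7 pairs measured on all 4 arrays, with lines that join the copies on 1 array (blue for MM in Cy5, red for SC in Cy5, solid for replicate 1, dashed for replicate 2). In RPS23 the lines of both orientations cross, with copy A near 0.14 and copy B near -0.14 on average with MM in Cy5, and at -0.46 and 0.75 with SC in Cy5.

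In the RPS9 pair the difference was the smallest, 0.02 ± 0.21 (A minus B, SD, n = 2). The arrays of both copies are given above. The replicates disagreed on which copy was lower, with A minus B at -0.13 in replicate 1 and 0.16 in replicate 2. In the RPS14 pair A minus B was -0.12 ± 0.04 (SD, n = 2), with RPS14A (YCR031C) at 0.26 and 0.65 with MM in Cy5, and at -0.01 and -0.45 with SC in Cy5. The copies changed order between arrays here too, and RPS14A spanned both signs while RPS14B did not. In the RPS6 pair A minus B was -0.09 ± 0.06, and it was below 0 with MM in Cy5 (-0.18 and -0.29) but above 0 with SC in Cy5 (0.07 and 0.02).

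The RPS23 pair differed most. Rps23 lies at the decoding centre and is required for accurate translation, and its copies are nearly identical. RPS23A (YGR118W) was at 0.21 and 0.06 with MM in Cy5, and at -0.42 and -0.50 with SC in Cy5. RPS23B (YPR132W) went the other way, at -0.24 and -0.03 with MM in Cy5, and at 0.65 and 0.86 with SC in Cy5. The orientations did not overlap in either copy, and they were in opposite order. The mean of A was -0.16 ± 0.08 and that of B 0.31 ± 0.15 (SD, n = 2, adjusted limma p 0.274 and 0.121), and A minus B was -0.47 ± 0.23. This difference was 0.45 and 0.09 with MM in Cy5, but -1.07 and -1.36 with SC in Cy5, so that its sign depended on the orientation.

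No pair differed in 1 direction on all 4 arrays. The difference exceeded its SD between replicate numbers in 4 of the 7 pairs, RPS4, RPS6, RPS14 and RPS23. That SD depends on which arrays are averaged. An exact sign-flip test over 2 replicates cannot give a two-sided p under 0.5, so no difference between copies could pass it. This does not show that the copies act alike. On the arrays of replicate 1 alone, RPS19A minus RPS19B was 0.44 when MM was in Cy5 and 0.78 when SC was, and RPS26A minus RPS26B was 0.11 and 0.03.

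The log2 ratios of the 40S genes lay lower, at the median, on the arrays with SC in Cy5. Across the 27 genes the median log2 ratio of MM over SC was -0.13 and -0.09 on the arrays with MM in Cy5, and -0.50 and -0.55 on those with SC in Cy5 (replicates 1 and 2). Over all 3765 genes these medians were -0.03 and -0.07 with MM in Cy5, and 0.02 on both arrays with SC in Cy5. The median difference between the orientations, MM in Cy5 minus SC in Cy5, was 0.41 over the 40S genes (0.38 in replicate 1 and 0.32 in replicate 2) and -0.08 over all genes. The 40S genes thus read less reduced when MM carried Cy5, and all genes together read slightly the other way.

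**Figure D3:**
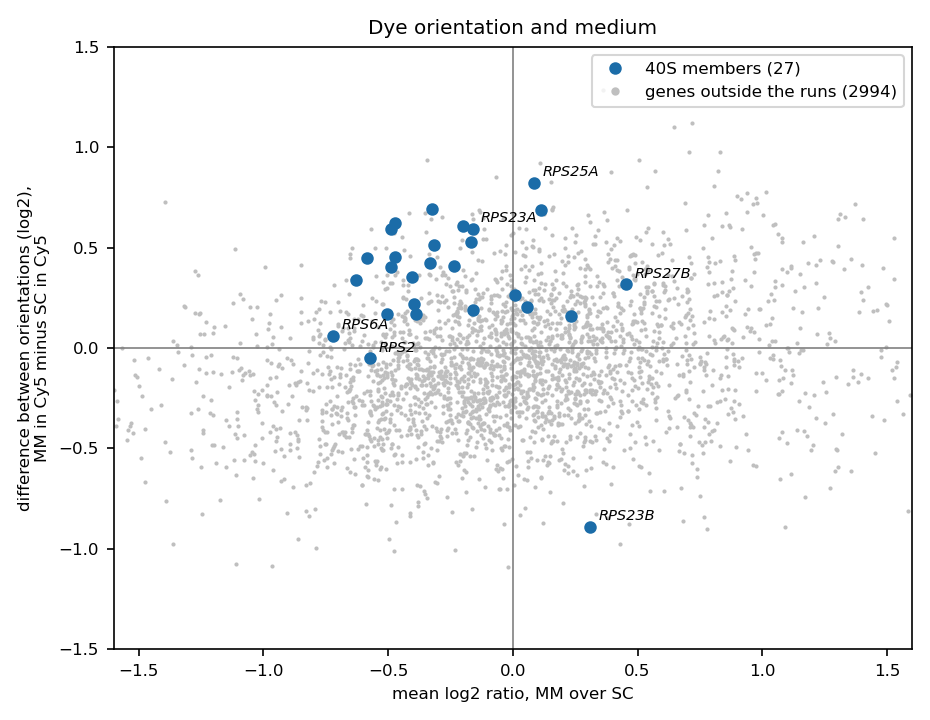
Difference between the dye orientations, MM in Cy5 minus SC in Cy5 (y axis, log2), against the mean log2 ratio of MM over SC (x axis), for the 27 genes of the 40S subunit on all 4 arrays (blue) and the 2994 genes outside the runs (grey, 198 of them beyond the axes). Of the 27 genes, 25 lie above 0 on the y axis, and RPS23B lies lowest at -0.89.

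Both replicate numbers gave the higher value when MM was in Cy5 in 24 of the 27 genes, as in 22.8% of all genes. In 22 the orientations did not overlap, with MM in Cy5 above, as in 15.6% of all genes. RPS2 and RPS23B went the other way in both replicates (40.1% of all genes), also without overlap (28.4%), although in RPS2 by 0.05 only. RPS6A alone differed in sign between the replicates, at 0.14 and -0.02. The largest positive difference was that of RPS25A, at 0.47 and 0.53 with MM in Cy5, and at -0.37 and -0.28 with SC in Cy5. Its difference of 0.82 was met or exceeded by 0.558% of the 3765 genes, while that of RPS23B, -0.89, was the 18th lowest.

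By limma on the 4 arrays, 0 of the 27 genes passed an adjusted p of 0.05 for the dye, against 0.00% called higher and 0.0266% called lower among all genes. Before adjustment, at p of 0.05 or less, 8 of the 27 were higher with MM in Cy5 and 1 was lower, against 2.84% and 5.37% of all genes. With the replicate number as a block RPS23B was called lower, as were 0.398% of all genes, and none was called higher (0.292% of all genes). The 8 included RPS14A, RPS16B, RPS19B, RPS20, RPS23A, RPS24B and RPS25A, and the 1 was RPS23B. Genes of the large (60S) subunit outside the runs were shifted too, with a median difference of 0.28 over 50 genes and 37 of them above 0 in both replicates. Self-against-self arrays were not part of the data, and a dye bias of these genes cannot be told apart from the orientation as such. In the mean of both orientations a dye effect cancels if it is of equal size, and the median of -0.33 rests on this.

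Across the 27 genes the replicates nevertheless ranked the genes alike. Pearson's r between replicate 1 and replicate 2 was 0.846 for the mean of both orientations (Spearman's rho 0.764). Both were lower than over the 2994 genes outside the runs (0.959 and 0.934). Between the orientations, Pearson's r across the 27 genes was 0.581 in replicate 1 and 0.481 in replicate 2. These are correlations across genes that share arrays and, for paralogs, sequence, and they are given as a description. For the difference between orientations, Pearson's r between the replicates was 0.702 and Spearman's rho 0.511. Over the 2994 genes outside the runs these were 0.396 and 0.372. RPS23B, at -0.89 in both replicates, lay far below the rest of the 27 genes and can raise Pearson's r. The correlation without RPS23B was not computed.

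Other genes of ribosome production give the setting. The 60S genes outside the runs had a median of -0.14 over 50 tested. Of these 7 were lower (14.0%, against 17.0% of all genes and 20.4% of those outside the runs) and 2 higher (against 16.5% of all genes). The 60S genes were thus not called more often than others in either direction. RPL36A (YMR194W) was lowest at -0.90 ± 0.09 and RPL41A (YDL184C) highest at 0.61 ± 0.23 (SD, n = 2, adjusted limma p 0.0175 and 0.0499). Their median lies above that of the 40S genes, and the difference was not tested. Of 12 factors of 40S assembly listed, 5 outside the runs were tested, with a median of -0.38. The 1 called was ENP1 (YBR247C), needed for processing at the pre-40S head, at -0.57 ± 0.15 (adjusted limma p 0.0411).

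**Figure D4:**
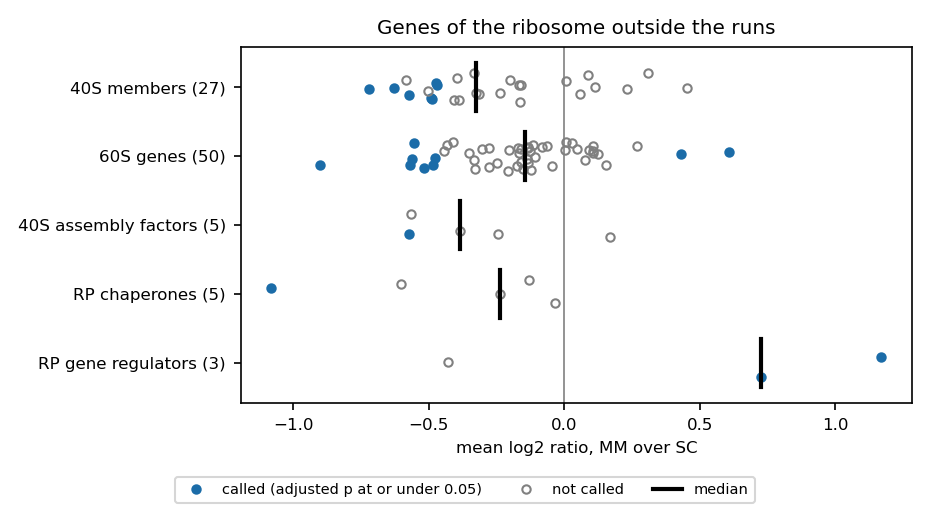
Mean log2 ratio of MM over SC (x axis) of each gene outside the runs with values on all 4 arrays, by list (rows, number of genes in parentheses; RP, ribosomal protein), with filled symbols for called genes, open symbols for others and a bar for the median. The 40S genes have a median of -0.33 with 7 called lower, and the 60S genes one of -0.14 with 7 called lower and 2 higher.

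Dedicated chaperones shield single ribosomal proteins until assembly. Of 5 tested outside the runs, SQT1 (YIR012W), the chaperone of Rpl10, was called lower at -1.08 ± 0.07 (adjusted limma p 0.0140). This change was larger than that of any of the 27 genes of the 40S subunit tested above. Among regulators of ribosomal protein genes, 3 were tested outside the runs. CRF1 (YDR223W), a corepressor that competes with Ifh1 for Fhl1, was higher in MM at 1.17 ± 0.08, and TOR1 (YJR066W), a catalytic subunit of TORC1, at 0.72 ± 0.05 (SD, n = 2, adjusted limma p 0.0131 and 0.0227). On single arrays CRF1 was at 0.94 and 1.18 with MM in Cy5, and at 1.29 and 1.27 with SC in Cy5. The mean of HMO1 (YDR174W), which binds many ribosomal protein promoters, was -0.43 ± 0.07, and it was not called.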

How the data were processed

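Yeast RNA was profiled on 4 spotted ORF arrays. Per the study's methods, the authors removed background after scanning, then scaled every array mean by mean. They kept spots as well measured if the signal passed 3 standard deviations of background pixels. Each ORF thus has 1 deposited log2 ratio per array, or a blank. Gene symbols came from the RefSeq table of assembly R64, which 5801 of 6301 ORFs matched (92.1%). Coordinates are left out because the values name no build.

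For the 3765 genes with 4 values, limma 3.58.1 (lmFit, eBayes; R 4.3.3) was run on replicate means, the dye orientations of a replicate number averaged first (n = 2), with Benjamini-Hochberg adjustment over all genes. The dye term was fitted on the 4 arrays, with no block. Scripts were tested on simulated data. The number of arrays limits the precision.

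The genes and lists were chosen with earlier results of these data known. Values on single arrays are given for called genes, the 3 highest and 3 lowest means, the pairs with the 3 largest and the smallest A minus B, and genes on fewer than 4 arrays; from other lists, the most changed called gene each way is named. A few of the genes are counted in the totals but are not reported here singly. Others singled out were chosen after their values were seen. Alternatives were another filter, normalization, variance or replicate choice, the omission of rows or arrays, and a replicate block.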

Additional observations from a re-analysis of the deposited data

Results flagged for a closer look

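On the replicate 1 array that had MM in Cy5, the log2 ratio of RPS22A, 0.34, stood far from its values on the other arrays (-0.02 with MM in Cy5 of replicate 2, and -0.06 and -0.03 with SC in Cy5). The gap to the nearest value was 0.897 of its whole range, above Dixon's 95% critical value for 4 arrays. Chance gives such a gap in about 1 of 20 groups, 27 genes were looked at, and the 4 arrays are of both orientations.

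In 5 genes both arrays of an orientation lay above 0 and both of the other below 0, although they compare the same media. This is 18.5% of the 27, against 5.34% of all 3765 genes. The difference, MM in Cy5 minus SC in Cy5, was 0.69 for RPS14A, 0.27 for RPS21B, 0.59 for RPS23A, 0.82 for RPS25A and -0.89 for RPS23B. None of them passed the limma test of the dye after adjustment (adjusted p 0.568 for RPS23A, RPS23B and RPS25A). With the replicate number as a block RPS23B alone passed, at an adjusted p of 0.0475, and at 0.0560 with the runs also left out it did not. In the 8 genes with values on all 4 arrays within 10 rows of RPS23B, the median difference was -0.05 (-0.36 to 0.41). In the 14 such genes around RPS23A it was -0.24 (-0.70 to 0.46). Rows are in order of systematic name, and positions on the slide were not examined.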

How the results depend on the processing

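The count of 40S genes called lower in MM was 7 and ranged widely. The share of all genes called lower in the same fit is given beside each count, and was 17.0% for the 7 (20.4% among genes outside the runs). Except in the fit with the runs left out, these shares of all genes include the rows of the runs. The count was 15 with the runs left out (33.3%), 12 with the 4 arrays as independent replicates (23.9%), 9 with array medians subtracted (17.6%), 3 when genes needed only 1 array in each replicate number (13.0%), and 0 by a test with no moderation (0.00%; 5 at an unadjusted p at or under 0.05), which has 1 degree of freedom. With single arrays left out it ranged from 0 (7.17%) to 7 (12.3%), and arrays with MM in Cy5 only gave 2 (16.0%) and those with SC in Cy5 only gave 4 (6.85%); the cause was not tested. The count called higher, 0 (1 unadjusted, by limma), was 2 with the runs left out (30.8% of all genes), and 1 both with array medians subtracted (15.4%) and with the 4 arrays as independent replicates (22.4%).

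The median log2 ratio of -0.33 stayed below 0 in every alternative run. It was -0.36 after quantile normalization, -0.30 without replicate 1, between -0.45 and -0.20 with single arrays left out, and -0.12 with MM in Cy5 only against -0.50 with SC in Cy5 only. The median dye difference of 0.41 was 0.46 with array medians subtracted, and 0.31 to 0.39 with single arrays left out. With the replicate number as a block, 1 gene (RPS23B) was called for the dye. Deviations of same-numbered arrays correlated at 0.706 over all genes but at 0.044 outside the runs, and the main dye fit had no replicate block. The medium contrast and A minus B do average the arrays that share a number. Their SDs and p-values thus rest on a grouping that the values outside the runs do not show.

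Among single genes, none of the 7 called turned its sign. RPS14A was at -0.16 without MM in Cy5 of replicate 2 and at -0.23 with SC in Cy5 only, and with MM in Cy5 only RPS23A was at 0.14 and RPS23B at -0.14. With single arrays left out, A minus B changed sign in RPS14 (-0.37 to 0.13), RPS24 (-0.08 to 0.25), RPS4 (-0.04 to 0.19) and RPS9 (-0.07 to 0.11), and ranged from -0.85 to -0.09 in RPS23 and from -0.17 to -0.02 in RPS6. The use of arrays of 1 orientation only, and the block with the runs left out, were chosen after the data were seen.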

Other observations

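Of 22 other genes of the 40S subunit, 18 lie inside the runs, 1 was not analysed here, and 3 lie outside. RPS10B (YMR230W) was at 0.71 and 0.55 with MM in Cy5, and read 0.87 on the replicate 1 array that had SC in Cy5, with a blank on the fourth array. RPS29B (YDL061C) was at 0.66 and 0.19 with MM in Cy5, and at 0.08 and 0.13 when SC was, with a mean of 0.26 ± 0.15 (SD, n = 2, adjusted limma p 0.160). RPS17B (YDR447C) was measured on replicate 1 only, where it read 0.07 when MM was in Cy5, and -0.52 when SC was. Both RPS10B and RPS29B encode proteins of the head, and they were above 0 on every array that measured them. So was RPS19A of the head on its 2 arrays. These genes were singled out after their values were seen, and of the 7 genes of the head tested above, 6 had a mean below 0. The mean of RPS17B was also below 0, at -0.22.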
